A study of Mus musculus with 15 samples.

Results

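The complement and coagulation factors were followed as 47 genes, taken by symbol from a table of raw read counts for 57132 mouse gene identifiers. All 47 were found, and all 47 were among the 18181 genes that passed the filter on low counts and were tested. They were sorted by where each protein is known to be made: 38 are hepatocyte-made, 7 are macrophage-made (C1qa, C1qb, C1qc, Cfp, C3ar1, C5ar1 and F13a1), and 2 come chiefly from other cells (Cfd from fat cells, F3 from many cells around vessels and ducts). The sorting came from general knowledge and used no value of these libraries. Of the 38 hepatocyte-made genes, 12 are also known to be made by other cells in amounts that could matter, among them C3, C4b, Masp1, F5 and Pros1.

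Livers of male C57BL/6J mice were profiled by bulk RNA sequencing in 3 groups, with 1 library per mouse. SR9009 mice (5 libraries) were fed CDA-HFD, a choline-deficient high-fat diet with adapted amino acids, for 18 weeks from the age of 8 weeks and were injected daily with SR9009 at 100 mg/kg per day over the last 6 weeks. SR9009 is a synthetic agonist of REV-ERB alpha and beta, nuclear receptors that repress genes of the circadian clock. Vehicle mice (5 libraries) had the same diet and injections of the carrier, 15% Kolliphor ELP in saline. Chow mice (4 libraries) ate standard chow for the same 18 weeks. No mouse is described as carrying an engineered allele, and the diet is a dietary model of steatohepatitis with fibrosis. Whether Chow mice received injections is not stated, so diet and injections cannot be told apart. No hour of collection is given.

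Complement is a set of plasma proteins that mark surfaces for uptake by phagocytes and can open pores in membranes. The classical and lectin pathways start it by recognition, C3 is its shared centre, and the terminal components build the pore. Coagulation factors are mostly protease precursors that act in series until thrombin turns fibrinogen into fibrin, while anticoagulants and plasmin hold the clot in check. Hepatocytes secrete most of these proteins into blood, whereas the C1q chains and the receptors for the peptides C3a and C5a are chiefly products of macrophages and other myeloid cells.

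The promoters of the fibrinogen genes and of a pair of C1q genes are shown because each set lies side by side on its chromosome. The count ratios within each family are described further on. Sequences and positions come from RefSeq on GRCm38.p6, run from 250 bases before to 50 bases after the start of the gene, and read 5′ to 3′ along the gene. The RefSeq promoter table held 37 of the 47 genes. In the fibrinogen promoters capitals mark GTTAAT, the core of sites for the hepatocyte factor HNF1, and CTGGGAA, a short element of interleukin-6 responsive promoters, on either strand.
Fga, chr3:83025903-83026202, plus strand: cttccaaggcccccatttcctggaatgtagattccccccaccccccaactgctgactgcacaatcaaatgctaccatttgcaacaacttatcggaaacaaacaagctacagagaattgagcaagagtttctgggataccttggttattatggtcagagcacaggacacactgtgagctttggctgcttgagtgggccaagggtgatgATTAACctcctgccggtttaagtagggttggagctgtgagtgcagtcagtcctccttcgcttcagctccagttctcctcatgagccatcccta
Fgb, chr3:83049814-83050113, minus strand: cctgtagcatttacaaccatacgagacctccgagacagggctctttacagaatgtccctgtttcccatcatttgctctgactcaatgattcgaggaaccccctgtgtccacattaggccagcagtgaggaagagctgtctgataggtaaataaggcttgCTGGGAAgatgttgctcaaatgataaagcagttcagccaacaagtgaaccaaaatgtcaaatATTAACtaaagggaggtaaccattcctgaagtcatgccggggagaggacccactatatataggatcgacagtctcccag
Fgg, chr3:83007474-83007773, plus strand: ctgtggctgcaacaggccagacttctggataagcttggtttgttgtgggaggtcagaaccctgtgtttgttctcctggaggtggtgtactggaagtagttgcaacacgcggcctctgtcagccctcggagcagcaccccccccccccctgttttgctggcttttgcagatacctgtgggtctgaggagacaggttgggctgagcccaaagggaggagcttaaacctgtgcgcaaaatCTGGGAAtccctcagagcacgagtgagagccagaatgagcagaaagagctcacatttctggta

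In the C1q promoters capitals mark GAGGAA, the core of sites for the myeloid factor PU.1, on either strand.
C1qb, chr4:136886151-136886450, minus strand: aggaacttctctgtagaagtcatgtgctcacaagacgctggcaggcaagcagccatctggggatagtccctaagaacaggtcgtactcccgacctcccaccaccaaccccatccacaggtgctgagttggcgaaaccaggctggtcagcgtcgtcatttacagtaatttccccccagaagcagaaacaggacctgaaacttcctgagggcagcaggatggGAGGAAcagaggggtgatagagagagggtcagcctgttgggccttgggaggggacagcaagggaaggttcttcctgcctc
C1qc, chr4:136892865-136893164, minus strand: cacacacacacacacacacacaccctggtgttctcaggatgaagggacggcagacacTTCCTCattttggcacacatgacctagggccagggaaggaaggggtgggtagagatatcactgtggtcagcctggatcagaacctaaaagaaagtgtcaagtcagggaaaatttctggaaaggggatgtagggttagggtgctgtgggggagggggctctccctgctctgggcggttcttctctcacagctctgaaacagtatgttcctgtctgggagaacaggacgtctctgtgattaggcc

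Over the same 300 bases, GTTAAT was found on either strand in 9 of 29 hepatocyte-made genes with a promoter in the table, in 1 of 6 macrophage-made genes (Cfp) and in 8.24% of all 27025 genes. CTGGGAA was found in 7 of 29 hepatocyte-made genes, in 0 of 6 macrophage-made genes and in 12.7% of all genes. GAGGAA was found in 3 of 29 hepatocyte-made genes (C1ra, F7 and Fgb, where it is not capitalised), in 4 of 6 macrophage-made genes (C1qb, C1qc, Cfp and F13a1) and in 31.3% of all genes. TAGGTCA, the site read by REV-ERB and ROR receptors, was found in C1qc and C6 alone among the 37, against 2.97% of all genes. The capitalised matches do not overlap each other. A match is only a run of letters in this window and is not evidence of binding.

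The library totals ran from 29950509 to 45542335 counts. Levels are given in CPM, that is counts adjusted to libraries of equal size after TMM scaling, which lines up the bulk of genes between libraries. Those factors were 1.02 to 1.15 in diet-fed libraries and 0.753 to 0.824 in Chow libraries. The 38 hepatocyte-made genes together took 3.90% ± 0.118 of raw counts in SR9009 livers, 3.75% ± 0.428 in Vehicle livers and 4.27% ± 0.38 in Chow livers (SD, n = 5, 5 and 4), ranges that overlap. The 7 macrophage-made genes took 0.0599% ± 0.00945, 0.0578% ± 0.0121 and 0.00999% ± 0.00426 in the same order, and the ranges of the diet-fed groups did not overlap that of Chow. Per kilobase of exon, the highest mean levels in Vehicle livers were those of C3 at 1484 CPM per kilobase, Fga at 1230 and Fgg at 1094, and the lowest were those of Cfb at 0.757, F13a1 at 0.268 and Cfd at 0.147.

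The first comparison, Vehicle with Chow, asks how the diet with carrier injections changed these genes. The hepatocyte-made and macrophage-made genes went opposite ways. Among hepatocyte-made genes 35 of 38 fell, 1 rose (Pros1) and 2 did not pass the test (C3 and Cfb). Among macrophage-made genes 6 of 7 rose, none fell, and Cfp did not pass. Passing means an adjusted p under 0.05 in edgeR's quasi-likelihood test with Benjamini-Hochberg adjustment over all 18181 genes. In total 8 of the 47 were higher and 36 lower, where 29.8% of all tested genes were higher and 25.4% lower. For 38 of the 47 the Vehicle and Chow libraries did not overlap, against 45.4% of all tested genes.

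The median log2 fold change was -0.70 for the hepatocyte-made genes, 2.32 for the macrophage-made genes and 0.02 for all genes tested. All 26 hepatocyte-made genes without another listed source fell, with a median of -0.75. Of the 12 with other sources 9 fell and 1 rose, with a median of -0.55. Cell type markers moved with these groups. Of 17 tested hepatocyte markers such as Alb and Ttr, 14 were lower and none higher, with a median of -0.70, and their summed level was 89530 to 98640 CPM in Vehicle livers and 125300 to 165700 CPM in Chow livers. Of 15 macrophage markers such as Csf1r and Cd68, 14 were higher and 1 lower, with a median of 2.52, and their summed level was 2042 to 3047 CPM in Vehicle livers and 206.3 to 591.4 CPM in Chow livers. The markers of Kupffer cells, the resident macrophages of the liver, went both ways: of 9, 2 were higher (Cd5l at 1.10 and Clec1b at 0.98), 2 lower (Cd163 at -5.13 and Timd4 at -3.19), and their median was -0.35. Their summed level overlapped, at 330.9 to 554.5 CPM in Vehicle livers and 281.9 to 636.7 CPM in Chow livers. Their part in the result was not tested. In these bulk samples fewer cells of a type and less RNA per cell cannot be told apart.

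**Figure D1:**
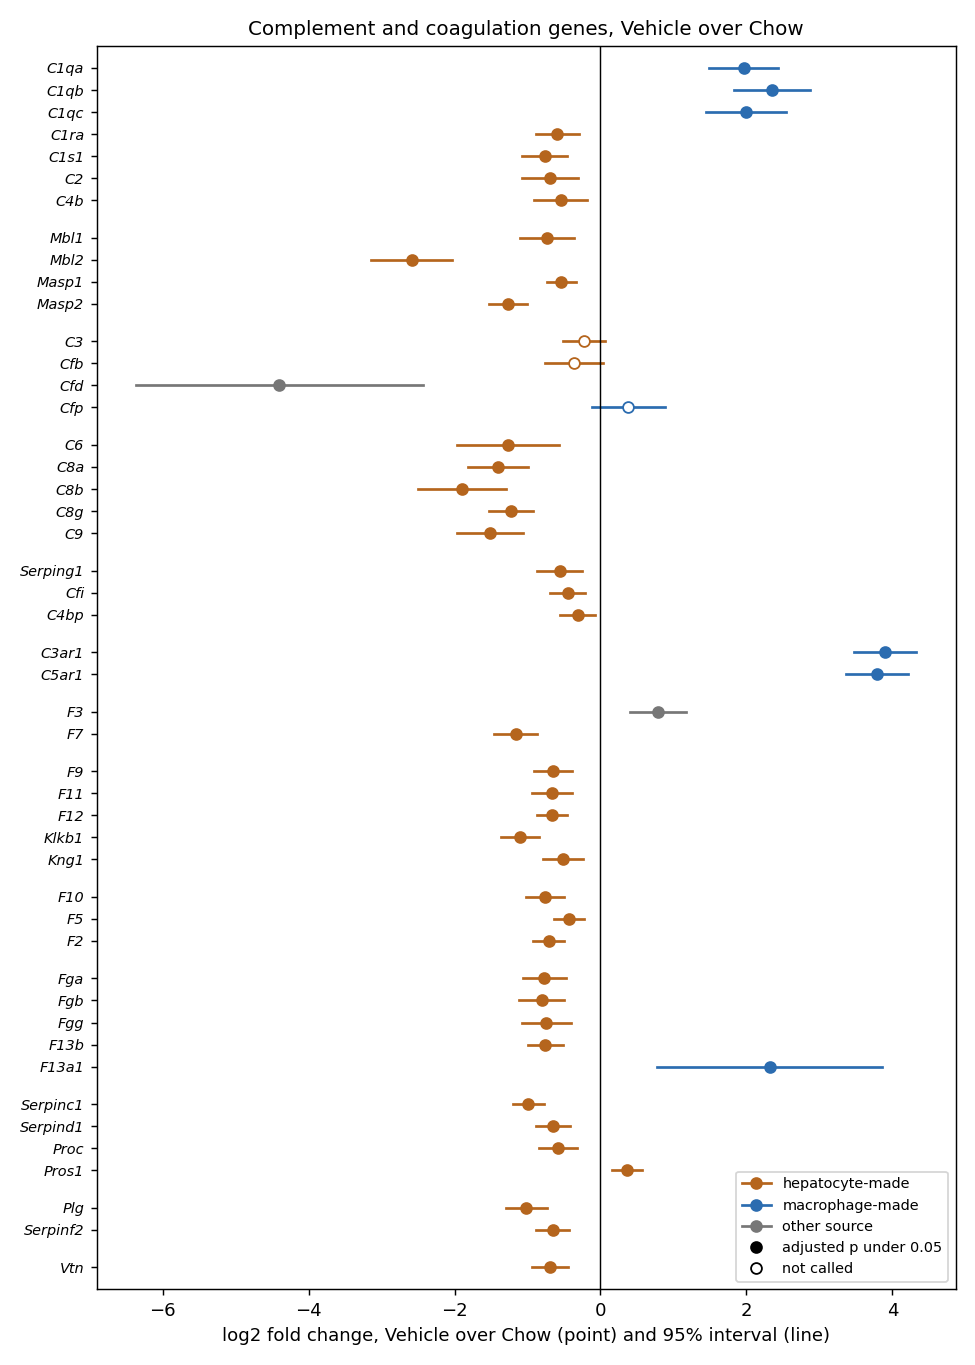
Log2 fold changes of the 47 genes, Vehicle over Chow (points), with 95% intervals (lines), grouped by role down the page and coloured by source. Filled points have an adjusted p under 0.05. Blue macrophage-made genes lie right of 0 and brown hepatocyte-made genes left of it, except Pros1 at 0.37, and the lowest hepatocyte-made value is Mbl2 at -2.59.

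The size of the hepatocyte-made fall depended on the scaling. When libraries were scaled by their totals alone, the median of all tested genes moved to 0.50, and the median of the hepatocyte-made genes to -0.23. Other scaling factors shift every gene of a comparison by nearly the same amount. The distance between these medians could therefore hardly change, and the rescaling does not test it. Under that scaling 18 of the 47 were still lower and 9 higher, where 1378 of all 18181 tested genes were lower and 10389 higher. Of the 47, those still lower were Mbl2, Masp2, Cfd, C6, C8a, C8b, C8g, C9, F7, F12, Klkb1, F10, F2, Fga, Fgb, F13b, Serpinc1 and Plg. The other 18 genes called lower on the TMM scale did not pass under library totals: 15 stayed below 0, such as C1s1 at -0.29 and Vtn at -0.21, and Cfi, C4bp and F5 turned positive. Levels and fold changes below are on the TMM scale.

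**Figure D2:**
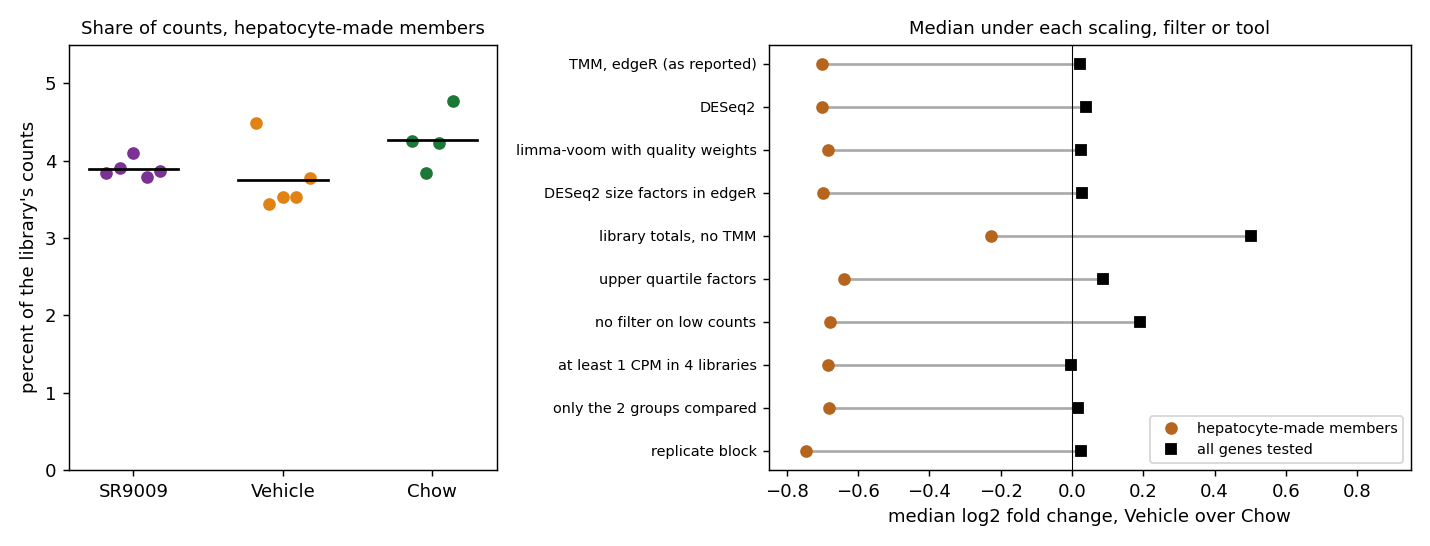
Left, percent of each library's raw counts that fell in the 38 hepatocyte-made genes (points, libraries; lines, means), with ranges that overlap between groups. Right, median log2 fold change, Vehicle over Chow, of the hepatocyte-made genes (circles) and of all tested genes (squares) under each scaling, filter, tool or design, which shows the shift to -0.23 and 0.50 under library totals alone.

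The starters of the classical pathway split by source. C1q, the molecule that recognises antibody on a surface, has 3 chains. C1qa had 130.2, 178, 128, 153 and 168 CPM in SR9009 livers, 184, 153, 129, 106 and 126 CPM in Vehicle livers, and 22.5, 30.7, 36.7 and 53.3 CPM in Chow livers. C1qb had 159, 216, 149.7, 192 and 197 CPM in SR9009 livers, 230.4, 184, 164, 131 and 156 CPM in Vehicle livers, and 21.4, 28.2, 32.2 and 54.6 CPM in Chow livers. C1qc had 127, 171, 125, 149.5 and 146 CPM in SR9009 livers, 178, 145, 123, 94.5 and 117 CPM in Vehicle livers, and 20.0, 29.0, 27.9 and 55.2 CPM in Chow livers. For all 3 chains every diet-fed library was above every Chow library, and Chow replicate 4 was the highest of the Chow libraries. Vehicle over Chow, the log2 fold change was 1.96 ± 0.22 (SE) for C1qa, 2.35 ± 0.24 for C1qb and 2.00 ± 0.26 for C1qc, with adjusted p of 3.62e-06, 1.57e-06 and 1.45e-05.

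The chains did not keep exactly the same ratio in all groups. C1qb counts per C1qa count were 1.17 to 1.25 in SR9009 livers, 1.2 to 1.28 in Vehicle livers and 0.877 to 1.02 in Chow livers. Counts of the 3 chains per count of Adgre1, which encodes the macrophage marker F4/80, were 7.77 to 10.9, 7.99 to 9.73 and 6.15 to 8.03 in SR9009, Vehicle and Chow livers. Per count of Cd68, a lysosomal macrophage protein, they were 4.99 to 5.72, 3.87 to 5.31 and 11 to 14.8. Per count of Csf1r, the receptor for a macrophage growth factor, they were 2.72 to 3.93, 2.33 to 3.9 and 1.83 to 2.5. Relative to Adgre1 the groups overlapped. Relative to Csf1r the SR9009 livers were all above the Chow livers, and the Vehicle and Chow livers overlapped. Relative to Cd68 the chains were lower in every diet-fed liver than in every Chow liver.

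The proteases and substrates that C1q sets in motion went the other way. C1ra and C1s1, the proteases bound to C1q, averaged 266 ± 29.8 and 311 ± 45.8 CPM in SR9009 livers, 243 ± 51.2 and 294 ± 66.5 CPM in Vehicle livers and 366 ± 30.9 and 498 ± 7.53 CPM in Chow livers (SD, n = 5, 5 and 4). Their log2 fold changes, Vehicle over Chow, were -0.59 ± 0.14 and -0.76 ± 0.15. C4b, the substrate they cleave, averaged 1473 ± 113, 1426 ± 342 and 2081 ± 503 CPM in SR9009, Vehicle and Chow livers, a change of -0.54 ± 0.17 with an adjusted p of 0.0128. Without Chow replicate 4 the change in C4b was -0.36 with an adjusted p of 0.0759. C2, the protease partner of C4b, changed by -0.69 ± 0.18 with overlapping groups. C1ra, C1s1 and C4b have near-identical copies (C1rb, C1s2 and C4a), so their counts are uncertain to the extent that reads were shared. C1s1 also shares 18.4% of its exon bases with Gm16567 on the other strand. For C2, 42.8% of exon bases lie within a readthrough gene on the same strand, Gm20547, in the GENCODE M21 annotation, and the level of C2 near 13 CPM in Vehicle livers may be incomplete.

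In the lectin pathway, which recognises sugars on microbes, all 4 genes fell, with a median of -1.0. Mbl2, encoding mannose-binding lectin C, had 54.9, 31.0, 32.9, 31.8 and 48.6 CPM in SR9009 livers, 45.9, 38.9, 33.3, 61.2 and 86.6 CPM in Vehicle livers, and 328, 316, 288.5 and 347 CPM in Chow livers. No diet-fed library came near a Chow library. Vehicle over Chow the change was -2.59 ± 0.26 with an adjusted p of 1.31e-06, that is 6.01-fold lower in Vehicle livers. Mbl1, its sister lectin, changed by -0.73 ± 0.17, and Mbl2 counts per Mbl1 count were 0.268 ± 0.0735 in SR9009 livers, 0.379 ± 0.117 in Vehicle livers and 1.35 ± 0.129 in Chow livers. Masp2, the protease that cleaves C4 and C2 for the lectins, had 102, 77.4, 118, 84.7 and 107 CPM in SR9009 livers, 92.2, 77.6, 82.8, 106 and 104 CPM in Vehicle livers, and 219.9, 210.3, 231 and 231 CPM in Chow livers. Its groups did not overlap, and the change was -1.27 ± 0.12 with an adjusted p of 4.02e-07. Masp2 shares 54.9% of its exon bases with Tardbp on the other strand, and whether reads were counted by strand is not stated.

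C3 and the alternative pathway held all 3 genes that did not pass the test. C3 had 9284, 6878, 6620, 7613 and 7753 CPM in Vehicle livers and 8082, 7723, 7817 and 12050 CPM in Chow livers, ranges that overlap. Its change was -0.23 ± 0.14 with an adjusted p of 0.178, and its 95% interval ran from -0.52 to 0.07. Cfb, factor B, the protease of the alternative pathway, was found at only 2.14 ± 0.338 CPM in Vehicle livers and 2.75 ± 0.475 CPM in Chow livers (SD, n = 5 and 4), and its change of -0.36 had an adjusted p of 0.114. Of the exon bases of Cfb, 79.5% lie within Gm20547 on the same strand, and Gm20547 held no count in any library, so the level of Cfb is uncertain. Cfp, properdin, which steadies the alternative pathway's convertase and is made by myeloid cells, had 25.2, 25.8, 19.98, 20.1 and 27.2 CPM in Vehicle livers and 9.47, 16.1, 18.6 and 28.6 CPM in Chow livers. The Cfp groups overlapped through Chow replicate 4, and the change was 0.38 ± 0.24 with an adjusted p of 0.187. Without that library it was 0.69 with an adjusted p of 0.0111. That Chow library also stood apart in the acute phase genes, liver genes that respond to inflammation. The summed level of the 17 listed was 29650 CPM there and 11330 to 12560 CPM in the other Chow livers, against 14230 to 24770 CPM in Vehicle livers. Chosen after their values were seen, Saa1 stood at 1082 CPM in that library with the other Chow livers at 23.9 to 49.4, and Hp at 8665 CPM with the others at 2244 to 2506. Of the 17 genes 4 were higher and 2 lower in Vehicle over Chow, with a median of 0.10. Their part in the results for C3, C4b and Cfp was not tested.

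Cfd, factor D or adipsin, a protease secreted chiefly by fat cells, was near the floor of detection in diet-fed livers. It had 0, 0, 3, 4 and 2 counts in SR9009 livers, 5, 2, 0, 15 and 10 counts in Vehicle livers, and 162, 152, 2 and 42 counts in Chow livers. As levels the Chow values were 5.68, 4.35, 0.0662 and 1.73 CPM, so 1 of the 4 Chow livers lay within the diet-fed range. Its change, Vehicle over Chow, was -4.40 ± 0.92 with an adjusted p of 0.000885, but in limma-voom with quality weights the adjusted p was 0.0658. The defining fat cell markers were at or near 0 counts in all groups: Lep at 0 in every library and Adipoq at 0 or 1. Other listed adipocyte genes that liver also expresses were not at 0, and the summed adipocyte list stood at 951.6 to 2180 CPM in Vehicle livers and 3992 to 6717 CPM in Chow livers. Car3 alone, which hepatocytes also express, held most of that sum, at 829.3 to 2061 CPM in Vehicle livers and 3961 to 6683 CPM in Chow livers. Of the 4 adipocyte genes tested, Cidec, Plin4 and Pparg were higher and Car3 was lower, with a median of 1.51.

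All 5 terminal pathway genes among the 47, whose products help assemble the membrane pore, were more than 2-fold lower in Vehicle livers, against 6.01% of all tested genes. C7, another part of the pore that was on the list of other complement genes and is named after its value was seen, went the other way at 2.07 ± 0.35, with an adjusted p of 0.000111. C8b, the beta chain of C8, had 133, 128, 218.5, 131 and 166.5 CPM in SR9009 livers, 181, 70.8, 117, 139 and 232 CPM in Vehicle livers, and 538, 419, 726 and 520.4 CPM in Chow livers. The change was -1.90 ± 0.28 with an adjusted p of 5.71e-05, and the groups did not overlap. C9, the pore-forming unit, changed by -1.52 ± 0.21, C8a by -1.40 ± 0.19, C6 by -1.27 ± 0.32 and C8g by -1.22 ± 0.14. C8b and C8a encode chains of 1 complex and stood at 148 ± 61.7 and 423 ± 109 CPM in Vehicle livers, against 551 ± 128 and 1120 ± 175 CPM in Chow livers. This role had the lowest median of the hepatocyte-made roles with more than 1 gene, at -1.40.

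The soluble inhibitors fell less. Serping1, the C1 inhibitor, which also blocks the contact proteases, changed by -0.56 ± 0.14, Cfi, the protease that inactivates C3b and C4b, by -0.45 ± 0.11, and C4bp, its cofactor on C4b, by -0.31 ± 0.11. The call for C4bp was the least secure of the 3, with an adjusted p of 0.0294. It was lost without Vehicle replicate 2 or 3 or without Chow replicate 1, 2 or 4, at adjusted p of 0.0573 to 0.0887, and with upper quartile factors, at 0.0755.

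The receptors for the anaphylatoxin peptides rose most. C3ar1, the receptor for C3a, had 35.5, 37.9, 27.0, 36.7 and 38.2 CPM in SR9009 livers, 44.6, 45.1, 41.5, 30.1 and 33.7 CPM in Vehicle livers, and 1.58, 3.32, 3.01 and 2.43 CPM in Chow livers. C5ar1, the receptor for C5a on macrophages and neutrophils, had 9.01, 11.9, 8.34, 9.79 and 13.7 CPM in SR9009 livers, 15.5, 12.3, 11.5, 10.6 and 12.3 CPM in Vehicle livers, and 0.632, 0.974, 0.96 and 1.03 CPM in Chow livers. Both were far above Chow in every diet-fed library. Vehicle over Chow, C3ar1 was higher by 3.90 ± 0.20 (14.9-fold) and C5ar1 by 3.79 ± 0.20 (13.8-fold), with adjusted p of 1.58e-09 and 1.32e-09. All 9 monocyte and neutrophil markers of the marker list also rose, with a summed level of 56.3 to 135 CPM in Vehicle livers and 8.84 to 26.9 CPM in Chow livers. The part of the different myeloid cells in these rises was not tested.

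**Figure D3:**
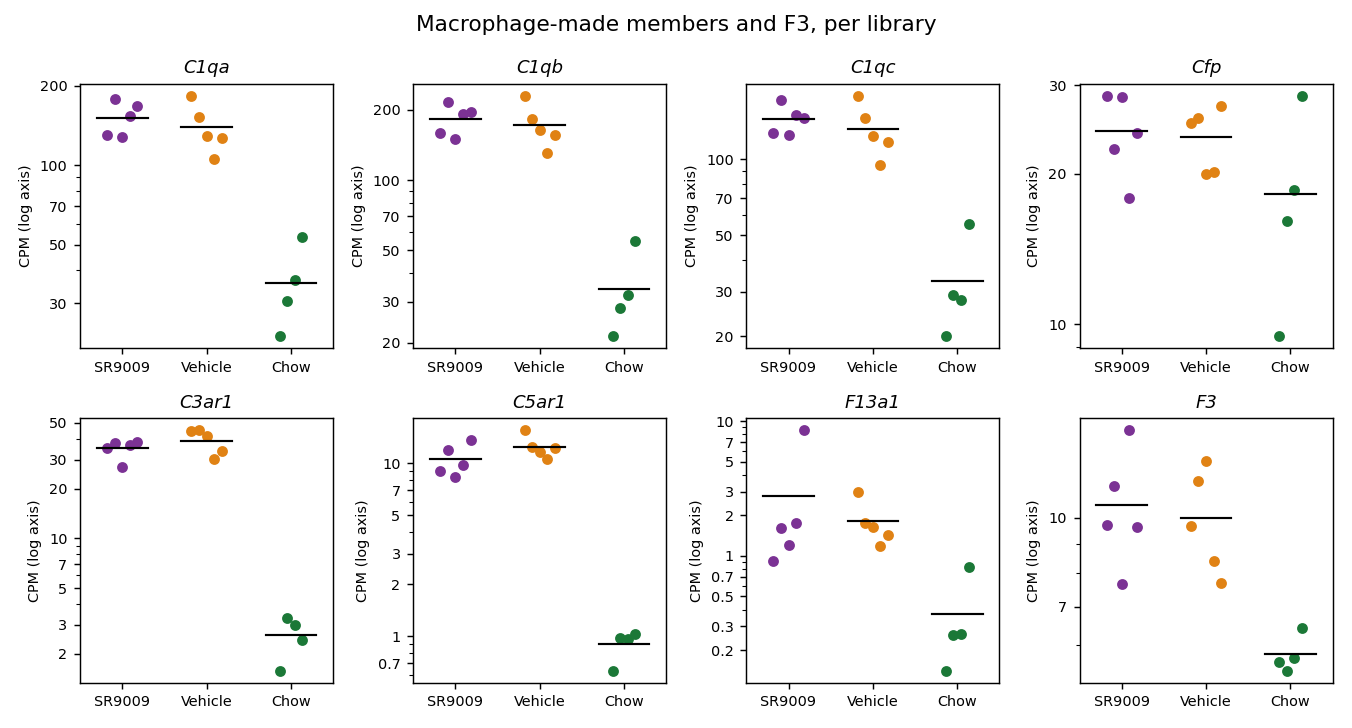
CPM in each library (points; lines are group means) of the macrophage-made genes and of F3, on log axes that differ between panels. The C1q chains, C3ar1, C5ar1, F13a1 and F3 are higher in every diet-fed library than in every Chow library, Cfp groups overlap, and SR9009 replicate 5 stands apart for F13a1 at 8.55 CPM.

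On the coagulation side, 19 of 20 hepatocyte-made genes fell, with a median of -0.70. F3, tissue factor, the cell-bound trigger of coagulation, is not hepatocyte-made and rose. It had 9.71, 11.4, 7.67, 14.2 and 9.64 CPM in SR9009 livers, 9.70, 11.6, 12.6, 8.42 and 7.69 CPM in Vehicle livers, and 5.61, 5.41, 5.69 and 6.43 CPM in Chow livers. The change was 0.79 ± 0.18 with an adjusted p of 0.00136, and no diet-fed library fell within the Chow range. F7, factor VII, the plasma protease that binds tissue factor, went the other way at -1.16 ± 0.14, with 61.9 ± 12.4 CPM in Vehicle livers and 139 ± 8.57 CPM in Chow livers (SD, n = 5 and 4). Markers of cholangiocytes rose in 9 of 9 and of stellate cells and fibroblasts in 10 of 11. Their part in the rise of F3 was not tested.

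The contact and intrinsic factors all fell, with a median of -0.66. Klkb1, plasma prekallikrein, had 103, 109, 128, 105 and 118 CPM in SR9009 livers, 124, 71.8, 111.5, 101 and 109.6 CPM in Vehicle livers, and 237, 221, 224 and 210.0 CPM in Chow livers. The change was -1.11 ± 0.12 with an adjusted p of 1.73e-06 and no overlap, although 43.2% of its exon bases are shared with Gm45753 on the same strand. F9, F11 and F12, the other protease precursors of this arm, changed by -0.65 ± 0.12, -0.66 ± 0.13 and -0.66 ± 0.10, and Kng1, the kininogen that carries prekallikrein and releases bradykinin, by -0.52 ± 0.13. Kng1 has a near-identical copy, Kng2, so its count is uncertain in the same way as those of C1ra and C4b.

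In the common pathway F2, prothrombin, had 1390, 1365, 1728, 1396 and 1630 CPM in SR9009 livers, 1511, 1236, 1282, 1455 and 1508 CPM in Vehicle livers, and 2493, 2185, 2236 and 2245 CPM in Chow livers. Its change was -0.71 ± 0.10 with an adjusted p of 2.21e-05, and every Vehicle library was below every Chow library. F10, the protease that cleaves prothrombin, changed by -0.76 ± 0.12, and F5, its cofactor, by -0.44 ± 0.10.

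Fibrinogen is built from 3 chains encoded side by side, and the 3 genes moved together. Fga had 2879, 3277, 3877, 3218 and 3415 CPM in SR9009 livers, 4881, 3330, 3738, 3070 and 3492 CPM in Vehicle livers, and 7174, 5125, 6660 and 6266 CPM in Chow livers. Fgb had 2754, 2843, 3561, 2801 and 2932 CPM in SR9009 livers, 4506, 3106, 3161, 2774 and 3200 CPM in Vehicle livers, and 6267, 4545, 6369 and 6233 CPM in Chow livers. Fgg had 1632, 1981, 2324, 1882 and 1993 CPM in SR9009 livers, 3138, 2024, 2276, 1752 and 2257 CPM in Vehicle livers, and 4250, 2988, 4155 and 3915 CPM in Chow livers. Vehicle replicate 1 was the highest and Chow replicate 2 the lowest of its group for all 3 chains, and only for Fgg did these libraries make the groups overlap. The changes were -0.77 ± 0.14, -0.81 ± 0.14 and -0.74 ± 0.16 for Fga, Fgb and Fgg, with adjusted p of 0.000213, 0.000189 and 0.000786. Fgb counts per Fga count were 0.859 to 0.957 in SR9009 livers, 0.846 to 0.933 in Vehicle livers and 0.874 to 0.995 in Chow livers, and Fgg counts per Fga count were 0.567 to 0.605, 0.571 to 0.646 and 0.583 to 0.625 in the same groups. These ratios overlapped between all groups.

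Factor XIII, which crosslinks fibrin, joins a hepatocyte-made and a macrophage-made gene, and the genes went opposite ways. F13b, the carrier subunit, changed by -0.76 ± 0.11, with 162 ± 17.6 CPM in Vehicle livers and 273 ± 21.5 CPM in Chow livers (SD, n = 5 and 4). F13a1, the enzyme subunit made by macrophages and megakaryocytes, had 0.912, 1.62, 1.2, 1.75 and 8.55 CPM in SR9009 livers, 2.99, 1.76, 1.64, 1.19 and 1.43 CPM in Vehicle livers, and 0.14, 0.258, 0.265 and 0.825 CPM in Chow livers. Its change, Vehicle over Chow, was 2.32 ± 0.72 with an adjusted p of 0.0135. Leaving out Chow replicate 4 gave 3.0 with an adjusted p of 0.00713. The Chow values rest on 4, 9, 8 and 20 counts. Platelet and megakaryocyte markers rose in 2 of 5 tested, where 29.8% of all tested genes were higher. Of the 5, 3 were above 0 and 2 below, with a median of 0.08. The summed level of the list was 11.3 to 15.8 CPM in Vehicle livers and 8.07 to 10.3 CPM in Chow livers. Pf4, named after its values were seen, held 195 to 233 counts in Vehicle livers and 13 to 25 in Chow livers. The part of these markers in the level of F13a1 was not tested.

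Of the anticoagulants, 3 fell and 1 rose. Serpinc1, antithrombin, had 1344, 1333, 1585, 1414 and 1557 CPM in SR9009 livers, 1411, 1177, 1235, 1439 and 1351 CPM in Vehicle livers, and 3057, 2527, 2473 and 2436 CPM in Chow livers. The change was -0.99 ± 0.10 with an adjusted p of 7.89e-07 and a wide gap between the groups, and 34.4% of its exon bases overlap Zbtb37 on the other strand. Serpind1, heparin cofactor II, changed by -0.66 ± 0.11 and Proc, protein C, by -0.59 ± 0.12. Pros1, protein S, the cofactor of protein C, which endothelial cells and macrophages also make, had 99.0, 107, 99.99, 105 and 103 CPM in SR9009 livers, 102, 106, 97.9, 77.1 and 90.7 CPM in Vehicle livers, and 69.4, 62.5, 78.6 and 83.3 CPM in Chow livers. It was the single hepatocyte-made gene called higher, at 0.37 ± 0.10 with an adjusted p of 0.00438, although Vehicle replicate 4 lay within the Chow range. Pros1 counts per Proc count were 0.204 to 0.265 in SR9009 livers, 0.169 to 0.342 in Vehicle livers and 0.097 to 0.135 in Chow livers.

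In fibrinolysis Plg, plasminogen, the precursor of the protease that dissolves fibrin, changed by -1.01 ± 0.13, with 1356 ± 224.5 CPM in Vehicle livers and 2740 ± 246 CPM in Chow livers (SD, n = 5 and 4). Serpinf2, antiplasmin, which blocks that protease, changed by -0.66 ± 0.10. Vtn, vitronectin, an adhesive plasma protein that also binds the terminal complement complex, changed by -0.69 ± 0.12, with 1803 ± 255 and 2911 ± 248 CPM in the same groups.

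**Figure D4:**
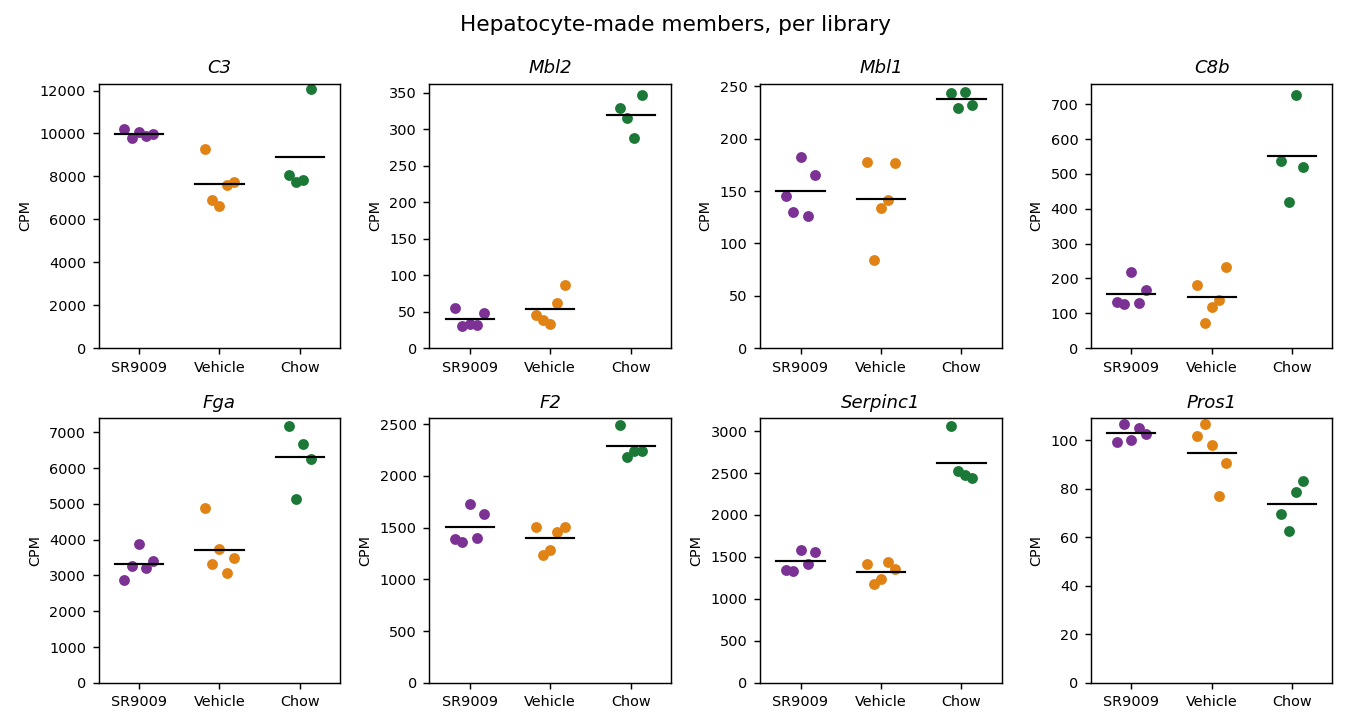
CPM in each library (points; lines are group means) of 8 hepatocyte-made genes, on linear axes from 0. C3 sits at 9791 to 10210 CPM in SR9009 livers, above all Vehicle livers, Mbl2 is below 87 CPM in every diet-fed liver, and Pros1 has a higher mean in both diet-fed groups than in Chow.

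Single libraries moved many hepatocyte-made genes at once. SR9009 replicate 3 was the highest of its group for 31 of the 38 genes, Vehicle replicate 2 the lowest of its group for 27, and Chow replicate 2 the lowest of its group for 27. Leaving out any 1 of the 14 libraries left 33 to 35 hepatocyte-made genes lower and 6 or 7 macrophage-made genes higher in Vehicle over Chow.

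The second comparison, SR9009 with Vehicle, asks whether the REV-ERB agonist changed these genes in diet-fed livers. None of the 47 genes passed the test in edgeR, where 0.242% of all tested genes did. DESeq2 and limma-voom with quality weights also called 0 of the 47. Masp1 and C3 had an unadjusted p under 0.05, against 7.28% of all genes, and only for C3 did the groups not overlap, against 1.87% of all genes. The median log2 fold change was 0.06 for hepatocyte-made genes and 0.08 for macrophage-made genes. The summed hepatocyte markers stood at 74490 to 93910 CPM in SR9009 livers and 89530 to 98640 CPM in Vehicle livers, and the summed macrophage markers at 1851 to 2581 CPM and 2042 to 3047 CPM, ranges that overlap for both lists.

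The intervals limit how large a difference could be. For 39 of the 47 genes the 95% interval of the fold change lay within 1.5-fold either way, against 56.6% of all tested genes, and for 45 it lay within 2-fold, against 76.9%. All 20 hepatocyte-made coagulation genes were within 1.5-fold, for instance F2 at 0.10 (interval -0.10 to 0.31), Fga at -0.15 (-0.43 to 0.13) and Serpinc1 at 0.13 (-0.07 to 0.33). The genes outside 2-fold were Cfd, with 0 to 15 counts in diet-fed libraries, and F13a1, where SR9009 replicate 5 held 361 counts and the other SR9009 libraries 43 to 82. The C1q chains differed by 0.12 (-0.30 to 0.54) for C1qa, 0.08 (-0.37 to 0.53) for C1qb and 0.13 (-0.36 to 0.61) for C1qc.

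**Figure D5:**
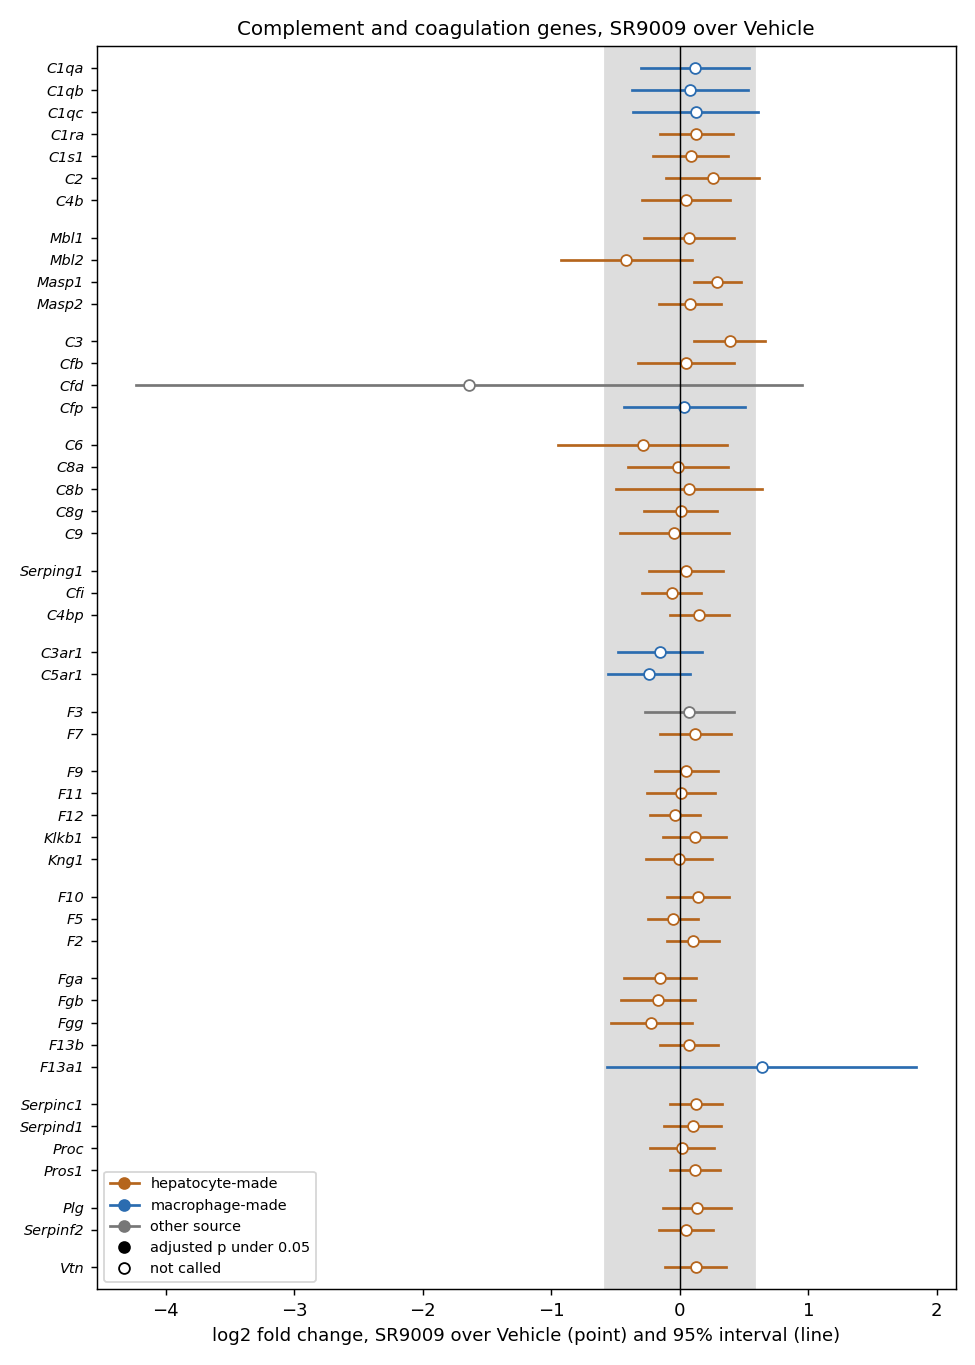
Log2 fold changes of the 47 genes, SR9009 over Vehicle (points), with 95% intervals (lines), grouped by role and coloured by source. The grey band marks 1.5-fold either way; 39 intervals lie inside it, no point is filled because no gene was called, and Cfd and F13a1 have the widest intervals.

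C3 and Masp1 came closest. C3 had 10210, 9791, 10050, 9873 and 9980 CPM in SR9009 livers and 9284, 6878, 6620, 7613 and 7753 CPM in Vehicle livers. All SR9009 values lay above all Vehicle values and within a narrow span of each other. The difference was 0.39 ± 0.13, with a p of 0.00879 in edgeR's quasi-likelihood test and an adjusted p of 0.379, and over the alternative settings the adjusted p ran from 0.114 to 0.707. Of the 17 acute phase genes, 14 were above 0 in SR9009 over Vehicle, with a median of 0.34, and none was called. Of all 18181 tested genes 9136 were above 0. The summed level of the acute phase genes was 19260 to 24990 CPM in SR9009 livers and 14230 to 24770 CPM in Vehicle livers, ranges that overlap. C3 is itself known as an acute phase protein, and the part of such a response in its difference was not tested. C3 counts per Alb count were 0.173 to 0.222 in SR9009 livers and 0.109 to 0.169 in Vehicle livers. Alb counts were 1773279 to 2435306 in SR9009 livers and 2403899 to 3006693 in Vehicle livers, so this ratio also carries the difference in Alb. Of the 17 tested hepatocyte markers 14 were below 0 in SR9009 over Vehicle, with a median of -0.11, and none was called. Masp1, which encodes proteases of the lectin pathway, had 202, 193, 205, 204 and 179.8 CPM in SR9009 livers, 174, 132, 146, 182.5 and 167 CPM in Vehicle livers, and 250.2, 223, 236 and 222 CPM in Chow livers. The SR9009 and Vehicle ranges overlapped by SR9009 replicate 5 and Vehicle replicate 4. The difference was 0.29 ± 0.09 with an edgeR p of 0.00417 and an adjusted p of 0.288, and 0.0735 to 0.895 over the alternatives.

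The next genes by p were Mbl2, C5ar1, C2 and Fgg. Mbl2, with the values given above, differed by -0.42 ± 0.24, the interval running from -0.92 to 0.09, and Vehicle replicate 5 held the highest diet-fed value. C5ar1 differed by -0.24 (-0.56 to 0.08) and Fgg by -0.22 (-0.54 to 0.09), where the direction in Fga and Fgb was the same but turned within the diet-fed libraries with few receptor genes, a class of libraries described with the processing. C2 had 13.6, 14.9, 17.2, 12.8 and 17.4 CPM in SR9009 livers, 13.9, 8.12, 12.0, 13 and 16.4 CPM in Vehicle livers, and 15.8, 17.5, 24.3 and 24.6 CPM in Chow livers. It differed by 0.26 (-0.11 to 0.62). The adjusted p of these 4 genes was 0.783 to 0.848 in edgeR's test, so no difference was detected at this number of mice.

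The third comparison, SR9009 with Chow, shares its Chow libraries with the first. In it 34 genes were lower and 8 higher, where 25.7% of all tested genes were lower and 30.5% higher. Of the hepatocyte-made genes 33 were lower, and Pros1 was higher at 0.48 ± 0.10. The lowest hepatocyte-made value was that of Mbl2 at -3.00 ± 0.26, against -2.59 in Vehicle over Chow. Masp2 stood at -1.19 and -1.27 in the 2 comparisons, C8b at -1.83 and -1.90, Serpinc1 at -0.86 and -0.99, and Fga at -0.92 and -0.77. C1qb stood at 2.42 and 2.35, C3ar1 at 3.75 and 3.90, and C5ar1 at 3.55 and 3.79.

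The genes that did not pass in SR9009 over Chow were C3 at 0.16, Cfb at -0.31, Cfp at 0.42, C4bp at -0.16 and C2 at -0.44. Several calls near the threshold turned on single libraries or settings. Without Chow replicate 4, C3 was called higher at 0.35 (adjusted p = 0.0222) and Cfp at 0.73 (adjusted p = 0.00811) in edgeR's test, and C4b was no longer called, at -0.31 (adjusted p = 0.117). Masp1, at -0.24 with an adjusted p of 0.0348, was no longer called without SR9009 replicate 2 or 5 or without Chow replicate 1, 2 or 3, with the replicate block (0.0597), with no filter on low counts (0.0908) or with upper quartile factors (0.0937). With library totals alone Masp1 was called higher, at 0.21 (adjusted p = 0.0372 in edgeR's test). C2, with an adjusted p of 0.05, was called without SR9009 replicate 3 or 5, Vehicle replicate 2 or 5, or Chow replicate 1 or 2, and also with the block (0.0219), in limma-voom (0.03), in a fit of only the SR9009 and Chow libraries (0.0245) and with DESeq2 size factors (0.0485). Cfd was lower, but in limma-voom its adjusted p was 0.0522. F13a1 was higher by 2.95, and by 1.92 without SR9009 replicate 5 and 3.64 without Chow replicate 4, and by 2.25 with the replicate block. Scaled by library totals alone, 17 genes were lower and 12 higher in this comparison, with the median of all genes at 0.47. By the same scaling 1577 of all 18181 tested genes were lower and 9964 higher.

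Other genes of the complement system were followed as a list of 28, of which 24 were tested. In Vehicle over Chow 8 were higher (33.3%) and 11 lower (45.8%), with a median of -0.23. Of all tested genes 29.8% were higher and 25.4% lower. The 4 highest-ranked rises by p were Itgax at 5.77, Itgam at 3.95 and Itgb2 at 3.64, the subunits of complement receptors 3 and 4 on myeloid cells, and Cd93 at 2.17, a receptor once linked to C1q. Among the highest-ranked falls were C4a at -4.30, Cfhr2 at -1.55, a relative of factor H, and Cd59a at -0.78, which blocks the terminal pore on host cells. C4a counts per C4b count were 0.00345 to 0.00869 in SR9009 livers, 0.00388 to 0.00826 in Vehicle livers and 0.0639 to 0.174 in Chow livers. C4a and C4b are near-identical, so the ratio depends on how shared reads were assigned. In SR9009 over Vehicle the median of the list was 0.01, and 12 of the 24 intervals lay within 1.5-fold, against 56.6% of all tested genes.

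Other coagulation and fibrinolysis genes were a list of 29, of which 26 were tested. In Vehicle over Chow 10 were higher (38.5%) and 9 lower (34.6%), with a median of -0.17. Of all tested genes 29.8% were higher and 25.4% lower. Highest-ranked by p among the rises were Plau at 3.48 and Plat at 5.10, the urokinase and tissue activators of plasminogen, Plaur at 4.15, the urokinase receptor, and Procr at 2.41, the protein C receptor. Their substrate Plg and the protein C gene Proc fell in the same livers, as given above. Highest-ranked among the falls were Tfpi2 at -1.30, a protease inhibitor, Cpb2 at -1.10, which slows fibrinolysis, Ggcx at -0.92, the carboxylase that completes the vitamin K-dependent factors, and Proz at -0.83, protein Z. In SR9009 over Vehicle the median of the list was 0.06, and 15 of the 26 intervals lay within 1.5-fold, against 56.6% of all tested genes.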

How the data were processed

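The authors deposited 1 table of raw counts per Ensembl identifier, 1 column per library, not normalised. The submitters' processing notes name STAR 2.7.11b and the build GRCm39. The counting method, its annotation and its strand setting are not stated in any source used here. Symbols came from a reference table and matched 51880 identifiers (90.8%). The labels describe 15 samples; the fits hold 14, without Chow replicate 5.

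Counts were filtered with filterByExpr (minimum count 10, minimum total 15), scaled by TMM and fitted with robust quasi-likelihood models in edgeR 4.0.16 (R 4.3.3), all 3 groups in 1 fit. Adjusted p under 0.05 was called. Tested genes held 99.9% of counts, and the common coefficient of biological variation was 0.211. Intervals are at 95%. Exon lengths and overlaps came from GENCODE M21 (GRCm38). The code was tested on simulated counts. No pair of libraries in a group was a repeat (lowest mean chi-square 15.3).

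The genes and lists were chosen with earlier results of these data known. All 47 genes are named. Values per library are given for C1qa, C1qb, C1qc, C3, F2, Fga, Fgb and Fgg, for the 4 hepatocyte-made genes with the smallest p in each direction in Vehicle over Chow, for macrophage-made and other-source genes, and for the 6 genes with the smallest p in SR9009 over Vehicle; C8b was added after its values were seen. Other lists name up to 4 genes per direction by p. A result for 1 gene named by that rule is left out. A class of libraries, those with few and those with many chemosensory (olfactory, vomeronasal, trace amine) receptor genes detected (of 1985, boundary 113.8), known from earlier results, put SR9009 replicates 1 and 3 and Vehicle replicates 4 and 5 among the few. Alternatives were DESeq2 1.42.0, limma-voom (limma 3.58.1), other scalings and filters, fits of 2 groups, the replicate number as a block, the class and leaving out each library.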

Additional observations from a re-analysis of the deposited data

Results flagged for a closer look

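Of 141 groups of libraries tested, 8 held a library far from the rest of its group, where chance flags about 1 in 20. C3 stood at 12050 CPM in Chow replicate 4, the other Chow libraries at 7723 to 8082. C3ar1 stood at 27.0 CPM in SR9009 replicate 3, the others at 35.5 to 38.2. Fgb was flagged in all 3 groups: 3561 CPM in SR9009 replicate 3 with the others at 2754 to 2932, 4506 CPM in Vehicle replicate 1 with the others at 2774 to 3200, and 4545 CPM in Chow replicate 2 with the others at 6233 to 6369. F13a1 stood at 8.55 CPM in SR9009 replicate 5, the others at 0.912 to 1.75. Serpinc1 stood at 3057 CPM in Chow replicate 1, the others at 2436 to 2527, and Serpind1 at 438.8 CPM in Vehicle replicate 3, the others at 513.4 to 540.3.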

How the results depend on the processing

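Library totals alone, without TMM, changed the counts of genes called. Of all 18181 tested genes, 1378 were then lower and 10389 higher in Vehicle over Chow, and 1577 lower and 9964 higher in SR9009 over Chow. Under these totals 17 hepatocyte-made genes and 18 of the 47 were lower in Vehicle over Chow, against 35 and 36 as reported. In SR9009 over Chow 16 hepatocyte-made genes and 17 of the 47 were lower and 4 hepatocyte-made genes higher, against 33, 34 and 1. Under the same totals the log2 fold change turned positive in Vehicle over Chow for C3 (0.25), Cfb (0.11), Cfi (0.032), C4bp (0.16) and F5 (0.0423), and in SR9009 over Chow for C2 (0.0043), Masp1 (0.21), Cfb (0.14) and C4bp (0.28), where that scaling puts the median of all genes at 0.50 and 0.47. In edgeR's test Masp1 (adjusted p = 0.0372) and C4bp (adjusted p = 0.019) were then called higher in SR9009 over Chow. Apart from hepatocyte-made genes higher in SR9009 over Chow, which were 2 without Chow replicate 4 (C3 was then called) against 1, every other setting kept these counts within 1.5 times. In SR9009 over Vehicle none of the 47 genes was called in any of the 26 settings that tested it. Cfd was tested in only 20 of them. Of the 47 genes, 23 kept the sign of their difference in every setting that tested them and 24 turned in at least 1. Of those 24 the largest difference was that of F13a1 at 0.64 (-0.39 to 0.90 over the settings). The median of the hepatocyte-made genes, 0.06, was -0.005 without SR9009 replicate 3 and -4e-04 without Vehicle replicate 2. Among the genes described for that comparison, the difference turned in C1qb, which ranged from -0.0071 (without Vehicle replicate 4) to 0.202 as libraries were left out, and in Fga to 0.0469 and Fgb to 0.085 within the libraries with few receptor genes. Leaving out 1 library at a time gave 33 to 35 hepatocyte-made genes lower in Vehicle over Chow and 32 to 34 in SR9009 over Chow, where 1 to 2 were higher. Same-numbered libraries showed no sign of varying together (13 pairs, r from -0.362 to 0.196, over 0.1 in 3). Pairs with different numbers ranged more widely (52 pairs, r from -0.433 to 0.474, over 0.1 in 19), so a weak pairing by number could go unseen. With the replicate block, 0 of the 47 genes were called in SR9009 over Vehicle, and calls over all genes there went to 15, against 44 without the block. The median standard error of the 47 differences in SR9009 over Vehicle was 0.13 on the log2 scale, so small differences in single genes may go undetected. Depth limits Cfd, F13a1 and Cfb, and counting without a stated strand setting limits genes that overlap others.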
